A study of Mus musculus with 12 samples.

Results

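Genes that mark the excitatory neurons of the cerebral cortex and their layers were read in 12 mouse brain libraries. They were taken as the rows of the deposited count table whose Ensembl IDs carry the symbols Neurod6, Neurod2, Tbr1, Cux2, Rorb, Fezf2, Foxp2, Tle4 and Rasgrf2, which gave 9 genes of 43629. All 9 passed the filter on low counts, and 19145 genes were tested in all. The libraries fall into 4 groups of 3: females and males given PBS, and females and males given rAAV, an engineered virus used to carry genes into cells, that encodes a collagen domain construct. All had been injected into the cerebral ventricles as newborns, and the brains were taken at 3 months of age. One frozen hemisphere was used, and the protocol names the forebrain as the tissue from which RNA was extracted. The labels give neither the strain nor the promoter of the construct, and no group received an rAAV without it, so vector and construct cannot be told apart. They also do not say that each library is a separate mouse, so the spread behind each p-value is that between libraries and may be technical.

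The labels were checked first, since they fix every direction below. Libraries held 39272127 to 52323985 reads, and mitochondrially encoded genes took 7.37 to 9.86% of them. C1qtnf3, the gene named in the series title, had under 1000 reads in 2 libraries labelled collagen domain (females 1 and 3) and over 1000 in 2 labelled PBS (female 2 and male 1). Xist and Ddx3y, which mark female and male tissue, went against the sex label in 4 libraries (PBS female 2, PBS male 1, collagen domain female 1 and collagen domain male 3). In all, 5 of 12 libraries went against at least 1 label, and the fold changes of the 9 genes by label are given with and without them.

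The cortex is built of layers of glutamatergic neurons that send their axons to different targets, and each layer is known for its own transcription factors. Neurod2 and Neurod6 are basic helix-loop-helix factors of excitatory neurons in all layers, and they bind short DNA motifs called E-boxes (CANNTG). Cux2 and Rasgrf2 are known from the upper layers, Rorb from layer 4, Fezf2 from layer 5, and Tbr1, Foxp2 and Tle4 from layer 6. Several of these genes are also used outside the cortex: Neurod2 in cerebellar granule cells, Foxp2 in Purkinje cells, striatum and thalamus, Rorb in thalamus, and Tle4 in striatum.

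The 250 bases before the transcription start sites of 3 genes are shown: Neurod6 and Fezf2, whose levels did not overlap between libraries with high and low hindbrain genes (below), and Neurod2, the relative of Neurod6 whose levels did overlap. The sequences are from RefSeq in the GRCm38.p6 build, 5′ to 3′ on the strand of the gene, with every CANNTG in capitals. They lie at chr6:55681264-55681513 (Neurod6), chr11:98329646-98329895 (Neurod2) and chr14:12345866-12346115 (Fezf2), all on the minus strand.
Neurod6: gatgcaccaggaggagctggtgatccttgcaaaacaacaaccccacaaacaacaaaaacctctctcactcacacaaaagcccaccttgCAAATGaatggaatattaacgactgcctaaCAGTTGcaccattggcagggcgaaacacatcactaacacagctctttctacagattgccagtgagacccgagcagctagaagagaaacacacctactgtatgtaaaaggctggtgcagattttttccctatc
Neurod2: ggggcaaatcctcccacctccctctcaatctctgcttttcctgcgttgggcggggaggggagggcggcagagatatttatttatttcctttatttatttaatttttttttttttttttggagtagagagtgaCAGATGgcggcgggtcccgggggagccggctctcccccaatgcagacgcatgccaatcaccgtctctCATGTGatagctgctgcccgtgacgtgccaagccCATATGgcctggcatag
Fezf2: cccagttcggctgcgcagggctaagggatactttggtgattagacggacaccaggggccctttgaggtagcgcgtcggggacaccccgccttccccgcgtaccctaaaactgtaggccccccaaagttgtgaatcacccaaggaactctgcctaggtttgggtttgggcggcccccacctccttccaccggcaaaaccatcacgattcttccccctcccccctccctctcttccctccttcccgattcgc
Neurod6 held 2 E-boxes in this window, Neurod2 held 3 and Fezf2 held 0. Of 32851 RefSeq promoter windows of this length, 66.2% held at least 1 CANNTG, a motif that reads the same on both strands. CAGATG on either strand (CATCTG on the other), the form that factors of the NeuroD family are known to prefer and itself a CANNTG, was found once before Neurod2, and 14.4% of all windows held it. RefSeq windows were found for 8 of the 9 genes, 11 windows in all, and Foxp2 was the gene without one. Of these 11 windows, 8 held a CANNTG and 2 a CAGATG, and 0 held the T-box motif AGGTGTGA on either strand, against 1.12% of all windows. A match describes the letters of the window and was not tested as a binding site.

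All 9 genes were well measured, with 438 to 8653 reads per library. Per kilobase of exon in the GENCODE M21 annotation, Neurod6 had the highest level, at a mean of 33.4 CPM per kilobase (range 26.5 to 42.0 over 12 libraries, CPM being reads scaled to the size of the library). Rasgrf2, a Ras guanine nucleotide exchange factor, followed at 16.4 (13.8 to 18.0), Neurod2 at 14.7 (12.2 to 17.3), Tbr1 at 12.7 (9.38 to 14.8) and Tle4, a co-repressor of the Groucho family, at 10.1 (8.37 to 11.1). Fezf2 (5.70), Cux2 (5.48), Rorb (2.35) and Foxp2 (1.79 CPM per kilobase) were lower. Neighbours in this order overlapped in range, except Neurod6 and Rasgrf2, Tle4 and Fezf2, and Cux2 and Rorb. No annotated exon of another gene overlapped theirs, which matters here because the library kit does not keep strand.

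**Figure D1:**
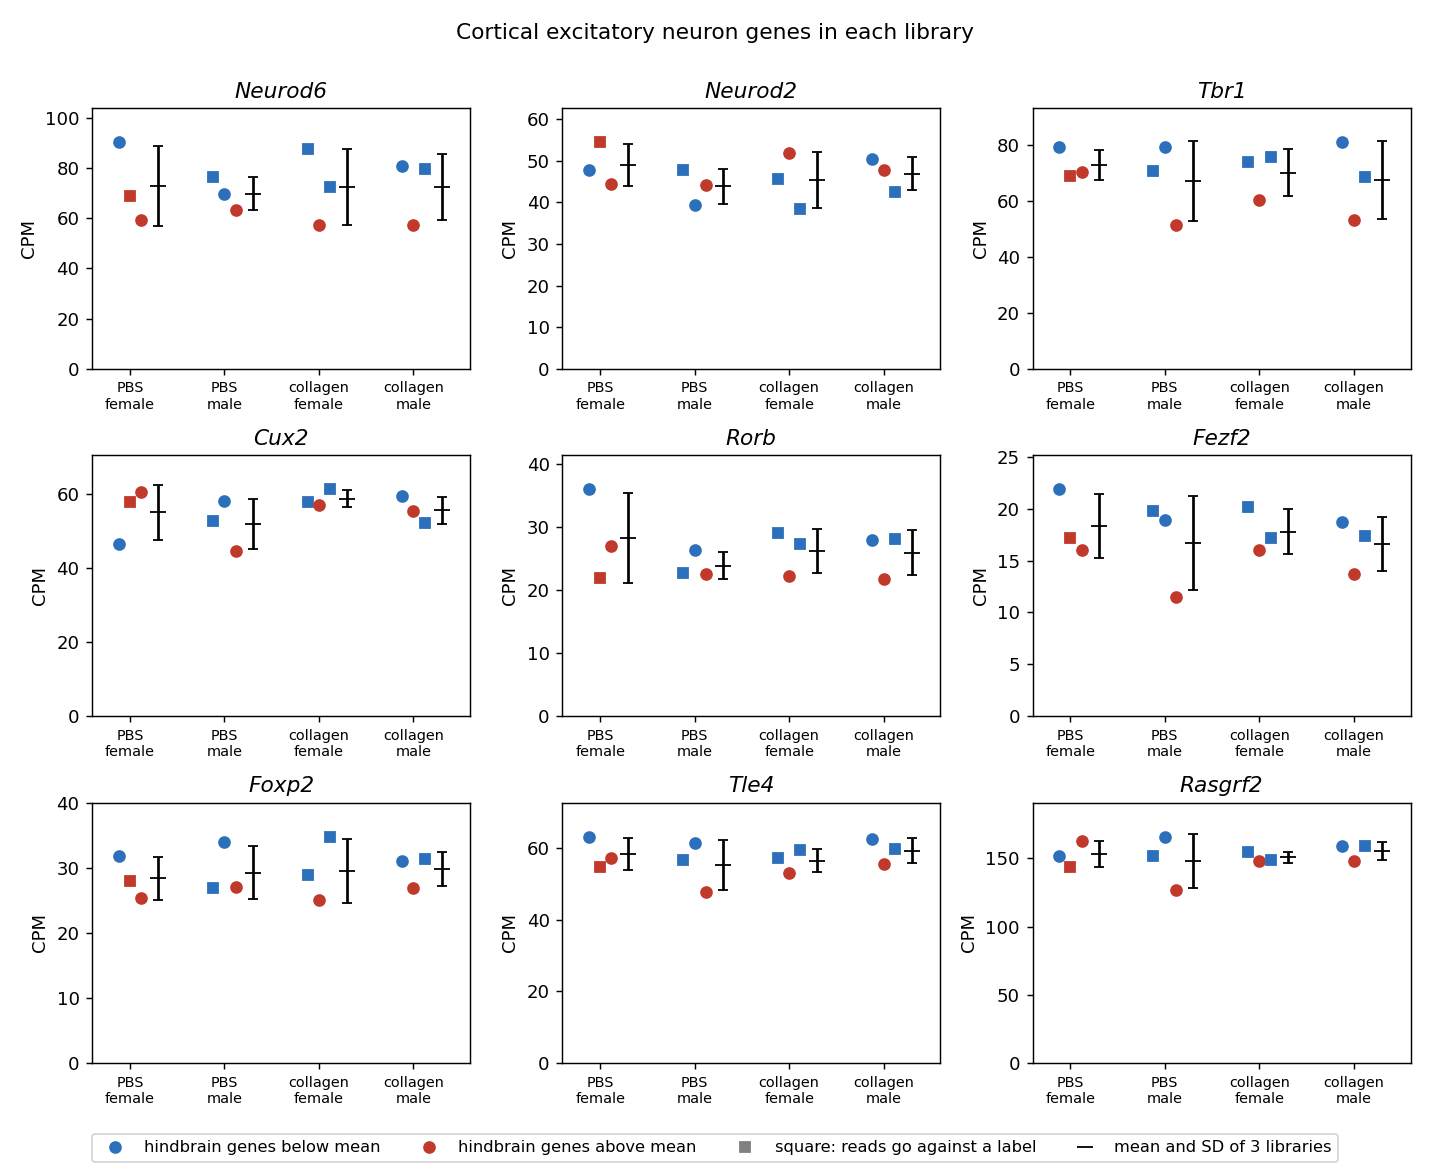
Level of each of the 9 genes (y axis, CPM) in the 12 libraries by labelled group (x axis), with the mean and SD of 3 libraries as bars. Red points are the 5 libraries with high cerebellum and hindbrain genes and squares the 5 whose reads go against a label. The groups overlap for every gene. For Neurod6 each red point lies below each blue point, while for Fezf2 the highest red and the lowest blue point meet at 17.2 CPM after rounding.

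By labelled treatment, no difference was called for any of the 9 genes, whose levels overlapped between PBS and collagen domain. Neurod6, a factor of excitatory neurons, stood at 90.2, 68.9 and 59.4 CPM in PBS females 1 to 3 and at 76.4, 69.5 and 63.2 CPM in PBS males. With collagen domain it stood at 87.7, 57.4 and 72.2 CPM in females and at 80.7, 57.1 and 79.4 CPM in males. High and low libraries occurred in each group, and the groups overlapped. Libraries labelled PBS averaged 71.3 ± 10.9 CPM and those labelled collagen domain 72.4 ± 12.7 CPM (SD, 6 libraries in each). The log2 fold change was 0.02 (SE 0.129, 95% interval -0.26 to 0.30, edgeR adjusted p = 1).

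Its relative Neurod2, which also drives excitatory neuron maturation, stood at 47.8, 54.4 and 44.5 CPM in PBS females and at 47.8, 39.4 and 44.2 CPM in PBS males. With collagen domain the values were 45.5, 51.9 and 38.4 CPM in females and 50.3, 47.8 and 42.5 CPM in males. Again no group stood apart, and the log2 fold change was -0.01 (SE 0.0874, interval -0.20 to 0.18, edgeR adjusted p = 1).

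Among upper-layer genes, Cux2, a homeobox factor of layers 2 to 4, had the largest fold change of the 9. It stood at 46.5, 57.8 and 60.6 CPM in PBS females and at 52.6, 58.2 and 44.6 CPM in PBS males. With collagen domain it stood at 57.9, 57.0 and 61.2 CPM in females and at 59.3, 55.3 and 52.1 CPM in males. The 2 lowest values were PBS female 1 and PBS male 3, while the other 4 PBS libraries lay within the collagen domain range. The log2 fold change of Cux2 was 0.10 (SE 0.0772, interval -0.07 to 0.26, edgeR adjusted p = 1), and it stayed above 0 without any 1 library (0.05 to 0.14). PBS female 1 and PBS male 3 were also the libraries with the highest mitochondrial share, 9.86 and 9.67%, and the part of this in the Cux2 values was not tested. Rasgrf2 ranged from 127 to 166 CPM with PBS (median 152) and from 148 to 159 CPM with collagen domain (median 152), at a log2 fold change of 0.02 (SE 0.064, edgeR adjusted p = 1). The collagen domain values of Rasgrf2 lay inside the PBS range.

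Rorb, a nuclear receptor of layer 4 neurons, stood at 36.0, 21.9 and 27.0 CPM in PBS females and at 22.7, 26.3 and 22.5 CPM in PBS males. It stood at 29.1, 22.3 and 27.3 CPM in collagen domain females and at 28.0, 21.8 and 28.1 CPM in males. One library, PBS female 1, lay above all others, and the groups overlapped (log2 fold change 0.01, SE 0.122, interval -0.26 to 0.27, edgeR adjusted p = 1).

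Deep-layer genes showed the same overlap. Fezf2, the zinc finger factor of subcortical projection neurons, stood at 21.9, 17.2 and 16.0 CPM in PBS females and at 19.8, 18.9 and 11.5 CPM in PBS males. It stood at 20.2, 16.0 and 17.2 CPM in collagen domain females and at 18.7, 13.7 and 17.4 CPM in males. PBS male 3 was the lowest and PBS female 1 the highest, so both extremes carried the PBS label. Its log2 fold change was -0.03 (SE 0.138, interval -0.33 to 0.27, edgeR adjusted p = 1), the widest interval of the 9. Tbr1, a T-box factor of corticothalamic neurons, ranged from 51.5 to 79.5 CPM with PBS (median 70.7) and from 53.2 to 81.1 CPM with collagen domain (median 71.4). Foxp2 ranged from 25.4 to 34.0 CPM (median 27.5) and from 25.1 to 34.9 CPM (median 30.1), and Tle4 from 47.7 to 63.2 CPM (median 56.9) and from 52.9 to 62.5 CPM (median 58.3). The log2 fold changes were -0.02 for Tbr1 (interval -0.28 to 0.23), 0.04 for Foxp2 (-0.16 to 0.25) and 0.03 for Tle4 (-0.13 to 0.18).

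With all 12 libraries as labelled, edgeR's quasi-likelihood test thus called 0 of the 9 genes, against 0 of 19145 genes in all (0%). At an unadjusted p under 0.05 there were 0 of the 9 and 354 of all genes (1.85%), and 0 genes passed with DESeq2 or limma-voom. The median of the 9 log2 fold changes was 0.02 with 6 above 0, beside a median of 0.00 and 50.1% above 0 over all genes. Without PBS male 3 only 2 were above 0, and without collagen domain male 1 only 3 (median -0.02 in each). The 95% intervals reach at most 0.30 upward (Neurod6) and 0.33 downward (Fezf2) on the log2 scale, and differences inside each gene's interval are not excluded. They hold for 1 gene at a time and for the labels as given. They are not the smallest difference that the test over 19145 genes could call. No gene of the 9 had treatments that did not overlap, as against 0.0313% of all genes higher and 0.0366% lower with collagen domain.

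The 5 libraries that go against a label were then left out, which kept 4 labelled PBS and 3 labelled collagen domain. None of the 9 passed here either, and the largest changes were -0.20 for Rorb (interval -0.60 to 0.21, edgeR adjusted p = 0.718) and 0.19 for Neurod2 (-0.01 to 0.39, edgeR adjusted p = 0.681). Neurod6, Neurod2, Rorb, Foxp2, Tle4 and Rasgrf2 changed sign in this fit. Of the 7 libraries, 2 with PBS and 2 with collagen domain had high hindbrain genes, described next, so tissue content was not balanced between the arms.

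**Figure D2:**
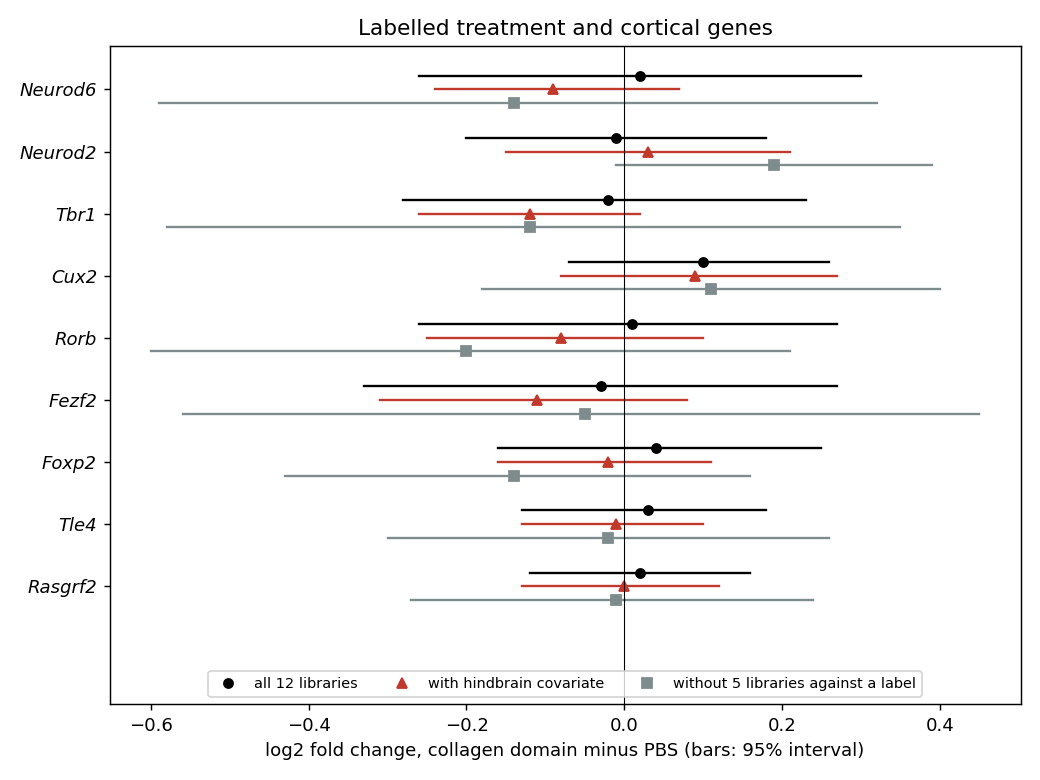
Log2 fold change of collagen domain against PBS (x axis) for each of the 9 genes (y axis), with 95% intervals, from all 12 libraries, with a covariate of hindbrain genes, and without the 5 libraries against a label. Each interval spans 0, and the covariate narrows those of Neurod6 and Tbr1 most.

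None of the 9 genes was called between the sexes or for treatment within a sex. Between labelled females 2 of the 9 log2 fold changes were above 0 (range -0.11 to 0.09), and between labelled males 8 (range -0.01 to 0.12), with 0 called in either. These counts rested on single libraries. In females the count was 6 without PBS female 1 (median 0.02 in place of -0.05), 5 without collagen domain female 2 and 1 without collagen domain female 3. In males it was 4 without PBS male 3 (median -0.01 in place of 0.07) and 5 without collagen domain male 1 or male 3. The difference between the sexes in treatment effect was tested by the interaction, which called 0 of 9, with the highest estimates for Rorb at 0.23 and Neurod2 at 0.21 (edgeR adjusted p = 1 for both). Its estimates were above 0 for 8 of the 9 genes, but for 3 without PBS male 3, for 4 without collagen domain female 2 or male 1 and for 5 without PBS female 1. Without the 5 libraries against a label, the median of the 9 was -0.20 in females (2 above 0), 0.05 in males (8 above 0) and 0.29 for the interaction (9 above 0), beside medians of 0.00, -0.01 and -0.01 over all genes. In that fit 1 collagen domain female was left, assumed to vary like the other groups, and 0 of the 9 were called (edgeR, lowest adjusted p = 0.956). Male against female, Rorb stood at -0.13 (interval -0.40 to 0.13), Fezf2 at -0.12 (-0.41 to 0.18) and Foxp2 at 0.03 (-0.17 to 0.23), with 0 of 9 called by edgeR. The median of the 9 was -0.06, and -0.04 without the 5 libraries against a label. In each of these 4 comparisons 0% of all genes were called, so Xist and Ddx3y were not called between the labelled sexes either. At an unadjusted p under 0.05 stood 1.46% of all genes in females, 1.7% in males, 1.37% for the interaction and 1.97% between the sexes, with 0 of the 9 in each. None of the 9 had sexes that did not overlap, beside 0.0418% of all genes higher and 0.0627% lower in males. Ordered by the means of the 4 groups, no neighbouring groups were separate for any of the 9 genes. PBS males had the lowest mean for 7 of them, but for only 2 (Neurod2 and Rorb) without PBS male 3, a library with high hindbrain genes. They then had the highest mean for 5, among them Tbr1 at 75.2 CPM and Rasgrf2 at 159 CPM.

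A larger difference ran across the labels, with tissue. Cerebellum and hindbrain genes, 11 in number, should be near absent from forebrain. Their summed level was 254 to 570 CPM in 5 libraries (PBS female 2, PBS female 3, PBS male 3, collagen domain female 2 and collagen domain male 2) and 2.16 to 21.8 CPM in the other 7. The libraries were split by the mean log2 CPM of these same 11 genes, so their higher level in the 5 is built into the split. Each of the 11 was higher in the 5 libraries without overlap, Hoxa5 only just (lowest 1.77 CPM in the 5, highest 1.75 CPM in the 7). Hoxb3 was apart by few reads, with at least 14 in the 5 and at most 12 in the 7. Gabra6, a GABA receptor subunit of cerebellar granule cells, had 3096 to 6374 reads in the 5 and 0 to 45 in the 7, while Hoxa5, Hoxb5, Hoxb3 and Hoxc4 were at 0 in at least 1 of the 7. PBS male 1 had the highest sum of the 7, mostly through Slc6a5, the glycine transporter of brainstem and spinal neurons, at 13.7 CPM. Hoxa5, Hoxb5, Hoxb3 and Hoxc4 also peaked there among the 7, at 1.75, 0.884, 0.265 and 0.398 CPM. Its mean log2 CPM of the 11 genes, minus the mean of all 12 libraries, was -0.29. The rest of the 7 lay between -2.99 and -2.21, so the 7 were not equally low. Of the 5 libraries, 3 are labelled PBS and 2 collagen domain.

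Beside these markers, 8 of the 9 cortical genes had a lower mean in the 5 libraries and 1 a higher one. The differences in mean log2 CPM were -0.37 for Neurod6 and Fezf2, -0.32 for Tbr1, -0.28 for Rorb, -0.24 for Foxp2, -0.17 for Tle4, -0.10 for Rasgrf2, -0.01 for Cux2 and 0.13 for Neurod2. Over all 19145 genes the median was 0.00 and 50.3% were below 0. Neurod6 lay between 57.1 and 68.9 CPM in the 5 libraries and between 69.5 and 90.2 CPM in the 7, and Fezf2 between 11.5 and 17.2 CPM and between 17.2 and 21.9 CPM. These 2 of 9 genes were lower without overlap, against 2.79% of all genes, and 0 of 9 were higher without overlap, against 5.06%. The Fezf2 ranges nearly touched (both bounds round to 17.2 CPM), and PBS female 2 was the highest of the 5 for both genes. These are descriptions of libraries sorted by tissue markers, with no test. CPM is a share of the library, so RNA from added tissue, fewer cortical cells and less RNA per cell cannot be told apart here.

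Differences between 2 genes of the same library were computed for 3 pairs, and 1 pair did not overlap between the 5 libraries and the 7. Neurod6 exceeded Neurod2 by 0.68 to 0.94 in log2 CPM in the 7 libraries and by 0.14 to 0.51 in the 5, without overlap. Tbr1 exceeded Foxp2 by 1.12 to 1.39 in the 7 and by 0.92 to 1.47 in the 5, and Cux2 exceeded Fezf2 by 1.09 to 1.83 and by 1.75 to 2.01, so both overlapped. Neurod2 itself ranged from 44.2 to 54.4 CPM in the 5 and from 38.4 to 50.3 CPM in the 7, so it overlapped. Cux2 overlapped too, at 44.6 to 60.6 and 46.5 to 61.2 CPM.

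**Figure D3:**
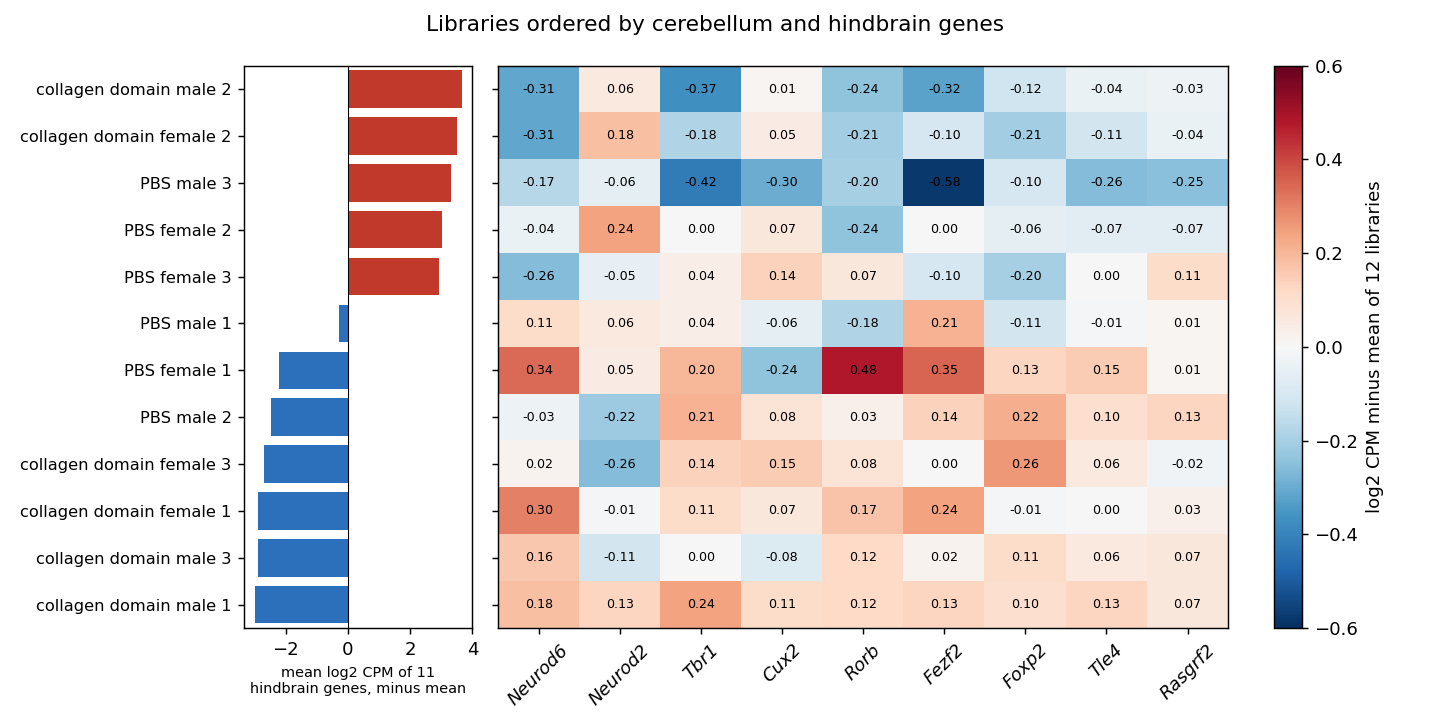
Left, mean log2 CPM of 11 cerebellum and hindbrain genes minus its mean over 12 libraries, with libraries (y axis) ordered by it. Right, log2 CPM of each of the 9 genes minus its own mean, in color and digits. Neurod6 is below 0 in the top 5 libraries, down to -0.31, and Rorb peaks at 0.48 in PBS female 1.

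Several of the 9 genes also spread less without the libraries with high hindbrain genes. A gene that differs between these libraries and the rest spreads less without them, so this in part restates the differences above. How many of all genes narrow was not counted. In the 7 libraries with low hindbrain genes, the coefficient of variation of Tbr1 was 6.25% against 14.2% over all 12, that of Fezf2 8.65% against 16.5%, and that of Neurod6 9.55% against 15.8%. Tle4 (4.22 against 7.66%), Rasgrf2 (3.68 against 6.76%) and Foxp2 (8.74 against 11.2%) narrowed as well. Neurod2 (10.2 against 10.3%), Cux2 (9.30 against 9.62%) and Rorb (14.2 against 16.0%) narrowed little. With the mean of the 11 hindbrain genes as a covariate, the SE of the treatment effect was smaller for 8 of the 9 genes, at 0.547 to 1.04 times its value without it, beside 66.1% of all genes with a smaller SE and a median ratio of 0.964. Under this covariate Tbr1 stood at -0.12 (interval -0.26 to 0.02), Fezf2 at -0.11 (-0.31 to 0.08) and Cux2 at 0.09 (-0.08 to 0.27), and 0 of 9 passed (edgeR, lowest adjusted p = 0.747). In the 7 libraries alone, 3 with PBS and 4 with collagen domain, the fold changes ran from -0.15 for Fezf2 (interval -0.34 to 0.03) to 0.14 for Cux2 (-0.06 to 0.35), with edgeR adjusted p = 0.975 for both.

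Other cortical genes were read from 4 lists of known markers beside the 9. Of 11 genes of forebrain excitatory neurons of any layer, 10 had a lower mean in the 5 libraries with high hindbrain genes, and 4 did not overlap: Emx1, Nrgn, Arpp21 and Mef2c. Over all genes 50.3% had a lower mean, 2.79% were lower without overlap and 5.06% higher without overlap, and the counts of the lists that follow are to be read beside these shares. Emx1, a homeobox factor of cortical progenitors and their excitatory neurons, lay at 8.29 to 9.52 CPM in the 5 and 9.60 to 11.7 CPM in the 7, so it was present in every library. Of 9 further upper-layer genes 5 had a lower mean, of 8 of layer 5 there were 6, and of 10 of layer 6 and the subplate there were 7. Genes that were higher without overlap were Calb1 (0.80 in mean log2 CPM), the calcium buffer of Purkinje cells and upper layers, Nxph4 (0.79), Zfpm2 (0.57), Etv1 (0.44) and Bcl6 (0.31). Lower without overlap among the layer lists were Rprm (-0.38), Syt6 (-0.30) and Pou3f2 (-0.18). Striatal projection neuron genes had 8 of 8 members lower, 5 without overlap, at a median of -0.51. Other neuron lists did not fall alike. Hippocampal genes had 3 of 6 lower at a median of 0.05, with 0 apart. Thalamic genes had 3 of 6 lower at a median of 0.05, with 2 higher without overlap. GABAergic genes had 5 of 7 lower at a median of -0.10, with 1 lower and 1 higher without overlap. The astrocyte and oligodendrocyte lists had 5 of 5 members higher each, at medians of 0.28 and 0.27. The summed level was 1222 to 1515 CPM in the 5 and 988 to 1114 CPM in the 7 for astrocytes. It was 5889 to 6752 and 4689 to 5387 CPM for oligodendrocytes. The part of these cell types in the levels of the 9 genes was not tested.

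**Figure D4:**
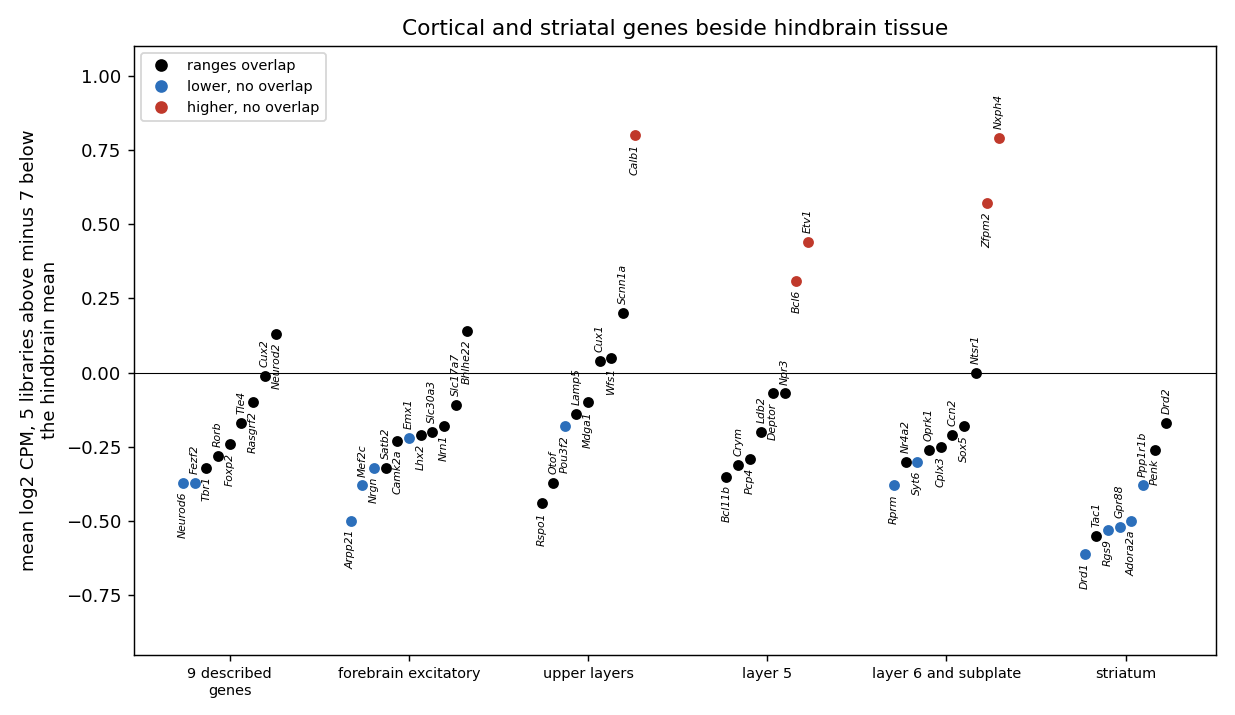
Difference in mean log2 CPM between the 5 libraries with high and the 7 with low hindbrain genes (y axis) for the 9 genes, 4 lists of other cortical genes and a striatal list (x axis), 1 point a gene. Neurod6 and Fezf2 are lowest among the 9 at -0.37, and Calb1 at 0.80 and Nxph4 at 0.79 are highest among the lists.

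By labelled treatment, edgeR called 0 genes of these 4 cortical lists, 38 genes in all, where 0% of all genes were called. The medians were -0.01 for forebrain excitatory genes (3 of 11 above 0), 0.03 for upper layers (5 of 9), -0.07 for layer 5 (1 of 8) and -0.02 for layer 6 and subplate (5 of 10). Rspo1, which encodes a secreted activator of Wnt signalling and marks layer 4, had the smallest unadjusted p of them, at a log2 fold change of 0.41 (SE 0.153, edgeR adjusted p = 1). Its level was 4.28 ± 0.616 CPM in the 6 PBS libraries and 5.69 ± 1.23 CPM in the 6 collagen domain libraries (SD). Mdga1 stood at 0.21 (SE 0.103), Npr3, a natriuretic peptide receptor, at -0.15 (SE 0.0743) and Crym, a thyroid hormone binding protein, at -0.24 (SE 0.147). Bhlhe22 stood at -0.11 (SE 0.0857), Nrn1 at -0.10 (SE 0.092), Ntsr1, a neurotensin receptor of layer 6, at 0.10 (SE 0.113) and Oprk1, the kappa opioid receptor, at 0.08 (SE 0.0904).

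Each of the 9 genes was also set beside the genes whose log2 CPM followed it most closely over the 12 libraries, by Pearson's r as a measure of likeness. Because the libraries fall apart by hindbrain content, r within the 7 is given as well, and neither carries a test. The genes were picked as the highest r among all tested genes over only 12 libraries, so high values can arise by selection alone. The 7 are part of the 12, so r within them is no separate check. Tbr1 was closest to Sorbs2 (r = 0.98 over 12, 0.91 within 7), Syt1, the calcium sensor of synaptic vesicles (0.97 and 0.93), and Plcb1 (0.97 and 0.92). Neurod6 was closest to Gm3510 (0.96 and 0.91), Cdca7 (0.95 and 0.86) and Cdk17 (0.95 and 0.78), and Neurod2 to Mrps2 (0.89 and 0.84), Slc22a7 (0.87 and 0.87) and Sox18 (0.87 and 0.79). Cux2 was closest to Rab11fip4 (0.97 and 0.96), Adamts17 (0.96 and 0.98) and Plec (0.96 and 0.92), and Rorb to Dbpht2 (0.95 and 0.98), Atxn1 (0.93 and 0.91) and Srsf12 (0.93 and 0.88). Foxp2 was closest to Six3 (0.93 and 0.86) and Rarb (0.92 and 0.96), both known from striatal neurons, and to Serpina9 (0.92 and 0.90). Fezf2 was closest to Hdac9 (0.96 and 0.73), Cdc42se2 (0.95 and 0.80) and Ppm1e (0.95 and 0.83), and Tle4 to Cntn3 (0.94 and 0.88), A830011K09Rik (0.93 and 0.68) and Pkhd1l1 (0.93 and 0.92). Rasgrf2 was closest to Zfc3h1 (0.95 and 0.89), Otof, itself on the upper-layer list (0.93 and 0.60), and Taf2 (0.92 and 0.72).

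Among the 9 themselves, 29 of the 36 pairs had a lower r within the 7 libraries than over 12, with medians of 0.18 and 0.52. Pairs of other genes were not counted, so the fall cannot be read as particular to the 9. Using the 7 alone also removes the difference between libraries with high and low hindbrain genes. Tbr1 and Fezf2 had r = 0.88 over 12 libraries and 0.30 within the 7, and Neurod6 and Tbr1 had 0.70 and 0.02. Pairs that moved less were Tbr1 and Tle4, which share layer 6 (0.86 over 12 and 0.72 within 7), Neurod6 and Fezf2 (0.77 and 0.67), Rorb and Tle4 (0.74 and 0.62) and Foxp2 and Tle4 (0.69 and 0.63). Neurod6 and Neurod2 went the other way, at -0.09 over 12 and 0.69 within the 7. Neurod6 and Rorb had 0.74 and 0.69. PBS female 1, which is in the 7, was the highest library for Neurod6, Rorb, Fezf2 and Tle4. A library high for both genes of a pair raises r, and r without it was not computed.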

How the data were processed

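Poly(A) RNA was read as pairs of 75 bp from a TruSeq version 2 kit, per the labels' protocols. The deposited values are raw read counts for each Ensembl ID. STAR, DESeq2 and GRCm39 are named per the submitters' processing notes, while the counting tool, strand setting and annotation are not given in the sources used here. Columns were assigned by library name. GENCODE M21 (GRCm38) gave symbols for 42462 of 43629 IDs, and exon lengths.

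The test was edgeR 4.0.16 (R 4.3.3): filterByExpr on the 4 groups, TMM, robust estimateDisp and glmQLFit, two-sided, Benjamini-Hochberg over 19145 genes, threshold 0.05. An additive model of sex and treatment gave the comparisons across sexes and between them, and a model of the 4 groups gave the others. Log2 CPM had a prior count of 2. Alternatives included DESeq2 1.42.0 and limma 3.58.1. Named genes are the 9, those of smallest p in each other cortical list (up to 4, here the first 2) and the 3 most alike per gene; those named by tissue difference were picked after their values were seen. The 9 genes, lists and alternatives were chosen with earlier results of these data known, and 1 listed gene is not reported here. Same-numbered libraries deviated from their group means with correlations of -0.38 to 0.57, so the numbers were not taken as pairs. Same-group libraries differed by chi-square values per degree of freedom of 11.1 to 94.6. On data simulated for treatment in both sexes, with 18961 genes, the test found 59.7, 74.2 and 100% of those changed by 1.5, 2 and 4 times. Genes were simulated independently, with every label correct and no tissue difference shared among genes. These shares may therefore be too high for the libraries as labelled. Figures used Python 3.11.15 and matplotlib 3.10.9.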

Additional observations from a re-analysis of the deposited data

Results flagged for a closer look

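Rorb in PBS female 1 stood at 36.0 CPM, far above the other 5 libraries labelled PBS, which lay between 21.9 and 27.0 CPM: the gap to the next library was 0.64 of the range of the 6. Chance flags about 1 group in 20 by this measure, and 18 groups of 6 were examined (9 genes in 2 treatments). The same library was also highest for Neurod6 (90.2 CPM), Fezf2 (21.9 CPM) and Tle4 (63.2 CPM) and second lowest for Cux2 (46.5 CPM), and it had the highest mitochondrial share (9.86%). The part of that share in these values was not tested.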

How the results depend on the processing

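None of the 9 genes was called in any of 5 comparisons under any of 22 alternatives, of which 12 leave out 1 library each; the lowest adjusted p of any of them was 0.257 (edgeR, treatment in females in the 7 libraries with low hindbrain genes, where 1 PBS female is left). Counts over all genes moved as follows. With DESeq2, 3 genes were called for treatment in males, 1 for the interaction and 8 for male against female. Without the 4 libraries against their treatment label, edgeR called 2 genes for treatment in both sexes, 1 in females, 1 in males and 1 for male against female. Without the 5 against either label these counts were 2, 1, 1 and 8. Without the 5 libraries with high hindbrain genes, 4 were called for male against female. With 1 library left out, the counts ranged from 0 to 5 for male against female (5 without PBS male 3) and from 0 to 1 for treatment in males (1 without collagen domain female 3). The replicate block called 0 genes in each comparison and changed no call.

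Signs of several of the 9 estimates changed. For treatment in both sexes, without the 4 libraries, Neurod6 stood at -0.05, Neurod2 at 0.17, Rorb at -0.12 and Foxp2 at -0.09. Without the 5, Neurod6 stood at -0.14, Neurod2 at 0.19, Rorb at -0.20, Foxp2 at -0.14, Tle4 at -0.02 and Rasgrf2 at -0.01. With the hindbrain covariate, Neurod6 stood at -0.09, Neurod2 at 0.03, Rorb at -0.08, Foxp2 at -0.02 and Tle4 at -0.01. Without the libraries with high hindbrain genes, Rorb stood at -0.03 and Tle4 at -0.02. For male against female, Neurod6 stood at 0.04 without the 4 libraries, and Neurod2 at 0.03, Cux2 at 0.04 and Foxp2 at -0.04 without those with high hindbrain genes. With 1 library left out, treatment estimates ranged from -0.04 to 0.11 for Neurod6, -0.05 to 0.05 for Neurod2, -0.10 to 0.04 for Tbr1, -0.05 to 0.11 for Rorb, -0.12 to 0.04 for Fezf2, -0.02 to 0.10 for Foxp2, -0.02 to 0.06 for Tle4 and -0.03 to 0.05 for Rasgrf2. Male against female, they ranged from -0.10 to 0.06 for Neurod6 and -0.03 to 0.09 for Foxp2. The cause of these changes was not tested. Cux2 kept its sign for treatment in both sexes in every alternative, while its sign within each sex was not followed.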
